A study of Arabidopsis thaliana with 4 samples.

Results

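Plants carry a large family of intracellular immune receptors built around a nucleotide-binding domain, and the 104 genes described here are those that an annotation-based rule picked from the 30361 genes of an Arabidopsis thaliana array. The rule took every gene whose deposited description names disease resistance, or ATP binding followed by a transmembrane receptor function, with no mention of a transposon. It matched 109 genes, of which 5 at named loci were left out. The rule itself uses descriptions only, not measured values. Of the 104 genes, 80 carry the receptor function in their description and 7 are receptors described by name, among them ADR1, RPM1, RPP5 and RPP8. The set is broader than the receptor family, because the other members are 13 genes described as pseudogenes, the 3 kinases EDR1, SERK5 and AT1G70250, and NDR1, a membrane protein that certain receptors need. In the RefSeq gene table, 10 of the 13 pseudogenes are listed as transcribed pseudogenes, 1 as a pseudogene and 2 as protein coding.

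The TEKi group consisted of seedlings in which an artificial microRNA (amiTEK) is directed against TEK, taken from T3 plants and labelled late flowering. The other group was wild type with normal flowering time. Both groups were in the Landsberg erecta (Ler) accession, were grown on MS medium plates and were collected on day 7. Each group had 2 arrays of total RNA from separate cultures, hybridised in 1 colour (Cy3). The labels give neither the promoter that drives the artificial microRNA nor the number of lines used. Because whole seedlings were used, fewer cells of a type and less RNA per cell cannot be told apart.

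Proteins of this family sit in the cytoplasm and sense microbial effectors, either directly or through a plant protein that the effector alters. A central ATP-binding switch and a leucine-rich repeat region are preceded by either a TIR domain or a coiled coil. TIR receptors signal through EDS1 with PAD4 or SAG101, many coiled-coil receptors that guard the plasma membrane need NDR1, and helper receptors such as ADR1 act downstream of others. The genes often lie in clusters of related copies, and their number and sequence differ widely between accessions. The array's gene models follow annotation release 6 of the reference accession, Columbia, whereas the plants were Ler. The match of the probes to Ler alleles was not tested, and near-identical neighbours in a cluster may share signal.

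Both deposited forms of the intensities, a file per array and a series value table, hold the same 4 arrays but disagree on the group of 2 of them. The arrays of TEKi 2 and wild type 1 are the same in both. One array is filed as wild type 2 but tabled as TEKi 1 (array X in the plots), and another is filed as TEKi 1 but tabled as wild type 2 (array Y). The labels do not settle which is right, so counts over the whole set are given under both sets of labels. They are then given for TEKi 2 against wild type 1 alone. Many single genes and smaller groups of genes are given only under the set of labels named there. No array was regrouped by its values. TEK itself (AT2G42940), the gene the artificial microRNA targets, passed no test under either labelling. By the array files TEK had 13770 and 9864 in TEKi, against 14118 and 13406 in wild type (log2 difference -0.24, SE 0.249, limma adjusted p = 1). By the value table TEK had 13770 and 14118 in TEKi, against 9864 and 13406 in wild type (0.28, SE 0.226, limma adjusted p = 0.694). No direction below can therefore be checked against the targeted gene, and TEKi and wild type stand for arrays that carry that label in the source named.

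The seedling label was checked against marker genes. The leaf markers RBCS1A, LHCB1.3, RCA and GAPA lay between 49080 and 64047 on every array, near or at the highest deposited intensity. LHCB2.2 was the exception, at 24.7 to 48.4. The 4 root markers were also present, and their summed intensity was 98997 to 134887. Flower markers other than SEP3 stayed between 162 and 1666. SEP3 was the bright exception: the 5 flower markers summed to 15846 to 53022, and SEP3 made up most of that sum on every array. The seed markers CRA1 and OLEO1, a storage protein and an oil body protein, ranged over 21.2-fold and 6.4-fold. No member reached the highest deposited intensity on any array.

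Receptor genes were dimmer than the array as a whole. Their median intensity was 2072 on TEKi 2 and 2055 on the array filed as TEKi 1, against 1954 and 2136 on those filed as wild type 2 and wild type 1. That compares with 5639 to 5814 over all genes of the array. Of the 104 members, 77 lay below the array-wide median of mean log2 intensity and 33 in its lowest quartile. The brightest member was RPP5 (60356 on wild type 1) and the dimmest AT4G11170 (19.1 on TEKi 2). Probes differ in brightness for reasons other than RNA level, so these values place the members on the array and do not rank one gene's transcript against another's.

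Several receptor genes varied widely from array to array. The highest over the lowest of the 4 intensities had a median of 2.32-fold over the members and 1.71-fold over all genes tested. It was at least 10-fold for 12 members (11.5%), against 4.48% of all genes, and under 2-fold for 44 members (42.3%), against 59.9% of all genes. Of those 12 members, 10 rest on 2 probe pairs, as do 62 of all 104, and the other 42 members rest on 3. Every one of the 12 had overlapping groups under the array-file labels. Under the value-table labels 11 of the 12 had groups apart, 3 higher and 8 lower in TEKi, and SERK5 was the exception. Over all genes, groups were apart with TEKi higher in 27.7% and lower in 17.1% by the value table. By the array files the shares were 15.3% and 14.7%. The 12 were picked by their range on these same arrays. The share among all genes with such a range was not computed, so the count does not set the members apart.

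**Figure D1:**
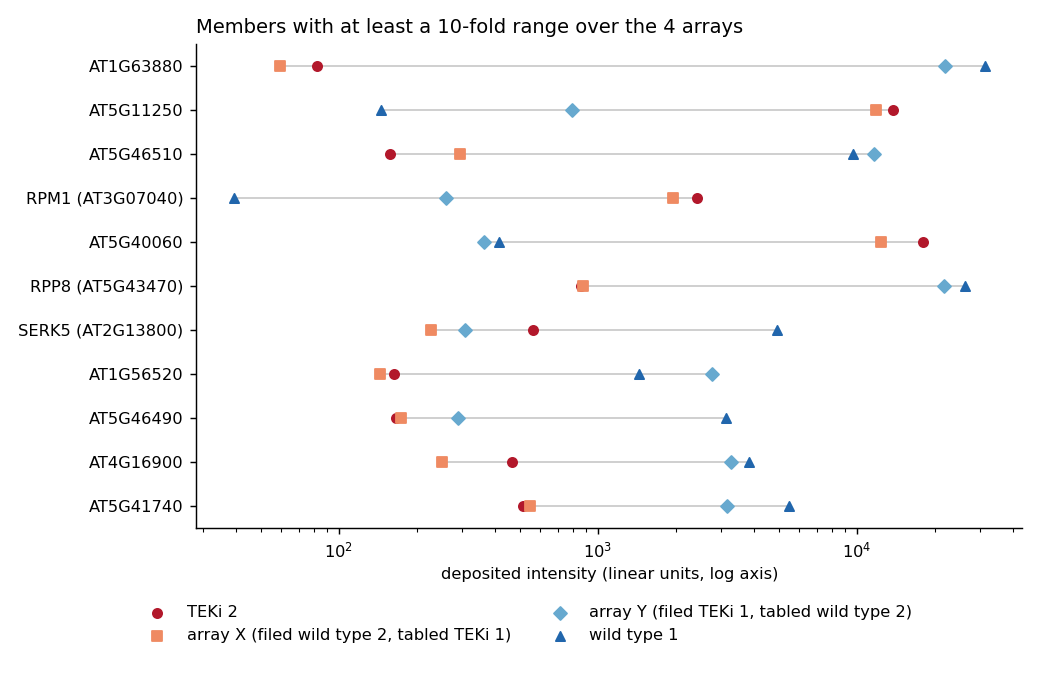
Deposited intensity (linear units on a log axis) of 11 members with at least a 10-fold range, a row per gene and a point per array, widest range at the top. For 10 of these 11, TEKi 2 (circle) and array X (square) lie on one side and array Y (diamond) and wild type 1 (triangle) on the other; for SERK5 wild type 1 alone is high.

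Arrays resembled each other in their receptor values along the labels of the value table. Pearson's r of log2 intensity over the 104 members, a description since members are not replicates, was 0.952 between TEKi 2 and the array tabled as TEKi 1, and 0.942 between wild type 1 and the array tabled as wild type 2. The other 4 pairs gave 0.741 to 0.794. Each of the 2 alike pairs had 5 members at least 4-fold apart, and the other 4 pairs had 13 to 17. The same 2 pairs were also the closest over the genes outside the set. There the median absolute log2 difference was 0.27 for the TEKi pair and 0.33 for the wild-type pair of the value table. It was 0.36 to 0.40 for the other 4 pairs, so the pairing is not particular to the members. This describes resemblance only, and it does not say which pair of arrays came from TEKi plants.

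Comparing TEKi with wild type by the value-table labels, 4 members changed: AT1G63880, RPP8 and AT5G46510 were lower in TEKi and AT5G40060 was higher. A gene counts as changed at a limma adjusted p of 0.05 or less, adjusted over all 30352 genes tested. Lower calls made up 3 of 104 members (2.88%), against 1.95% of all genes, and higher calls 1 of 104 (0.962%), against 0.273%; over both directions 2.22% of all genes were called. The shares rest on so few members that they do not set the family apart. Each of the 4 calls ended with the replicate number as a block and when any 1 of the 4 arrays was left out; leaving out an array decides nothing, because no gene of the 30352 passed in any fit of 3 arrays.

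AT1G63880, a receptor gene by its deposited function, had the widest difference. Its intensity was 82.6 and 59.5 on the TEKi arrays of the value table, against 21858 and 31205 on its wild-type arrays. The groups are far apart, with 3 probe pairs behind each value, whereas RPP8, AT5G46510 and AT5G40060 rest on 2 each. The log2 difference of AT1G63880 was -8.54 (SE 0.304, 373-fold lower in TEKi, limma adjusted p = 0.0131). With 1 array left out the log2 difference was -8.80 to -8.28 (limma adjusted p 0.0954 to 0.245). It was -7.76 with a pseudocount of 50, and whether the dim values stood above background is unknown, so the fold is uncertain. The gene lies on chromosome 1 at 23715939 to 23719787 of annotation release 6. Its cluster neighbours did not pass: AT1G63860, a pseudogene by description, had 9588 and 10216 in TEKi against 11505 and 15074 in wild type, and AT1G63870 had 181 and 75.5 against 47.4 and 244.

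RPP8 (AT5G43470; chromosome 5, 17479839 to 17484676) encodes a coiled-coil receptor that recognises the downy mildew agent Hyaloperonospora and was first isolated from Ler. It had 863 and 877 on the TEKi arrays of the value table, against 21738 and 26161 on its wild-type arrays. Within each group the arrays were close together, and TEKi was 27.4-fold lower (log2 difference -4.78, SE 0.182, limma adjusted p = 0.0133). With 1 array left out the log2 difference was -4.91 to -4.64 (limma adjusted p 0.101 to 0.245).

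AT5G46510 (chromosome 5, 18877678 to 18884240) is listed in RefSeq with the synonym VICTL and stands next to VICTR, a receptor gene studied for its part in responses to a small molecule and to abscisic acid. It had 158 and 293 in TEKi, against 11686 and 9656 in wild type, by the value table (log2 difference -5.63, SE 0.382, 49.4-fold lower, limma adjusted p = 0.0251). VICTR (AT5G46520) had 5420 and 4972 in TEKi against 4094 and 4610 in wild type (0.26, limma adjusted p = 0.623). With 1 array left out the log2 difference of AT5G46510 was -6.07 to -5.18 (limma adjusted p 0.0954 to 0.275).

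AT5G40060 (chromosome 5, 16051816 to 16055861) was the one member called higher. It had 18025 and 12392 in TEKi, against 365 and 415 in wild type, by the value table (log2 difference 5.26, SE 0.264, 38.4-fold higher, limma adjusted p = 0.0179). AT5G40100, its neighbour among the members, pointed the same way with groups apart, at 7140 and 6469 in TEKi against 4227 and 3534 in wild type (0.81, limma adjusted p = 0.206). With 1 array left out the log2 difference of AT5G40060 was 4.99 to 5.53 (limma adjusted p 0.0954 to 0.267).

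A further 5 members lay just past the threshold with the value-table labels, at limma adjusted p between 0.0535 and 0.0826. AT1G56520 had 164 and 144 in TEKi against 2769 and 1443 in wild type (log2 difference -3.70). AT4G16900 had 464 and 250 against 3267 and 3845 (-3.38), and AT5G41740 had 515 and 549 against 3161 and 5491 (-2.97). The fourth, RPP5 (AT4G16950), a TIR receptor against the same downy mildew agent, had 19747 and 17858 against 50457 and 60356 (-1.56, SE 0.189, limma adjusted p = 0.0679). Above 0 was AT4G16920, with 27923 and 23376 in TEKi against 7049 and 4614 in wild type (2.16).

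Among the members with the widest range, AT5G11250 and RPM1 did not pass with the value-table labels. AT5G11250 had 13737 and 11863 in TEKi against 798 and 146 in wild type (log2 difference 5.23, SE 0.942, limma adjusted p = 0.137). RPM1 (AT3G07040), which guards RIN4 against bacterial effectors, had 2415 and 1957 against 258 and 39.2 (4.43, SE 1.04, limma adjusted p = 0.212). For both genes the groups do not overlap, but the 2 arrays of the dimmer group lay several-fold apart.

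Over the whole set and the value-table labels, 30 members had an unadjusted p under 0.05 (28.8%), against 14.4% of all genes. Of these, 15 were higher, against 7.5% of all genes, and 15 lower, against 6.94%. TEKi was higher with the groups apart in 32 members (30.8%), against 27.7% of all genes, and lower in 24 (23.1%), against 17.1%. The log2 difference was above 0 in 61 members, against 60.3% of all genes, and below 0 in 43, with a median of 0.18 beside 0.09 over all genes tested, so the members shared no single direction. Seed markers also differed with these labels, though not all in the same direction. CRA1 had 1388 and 739 in TEKi against 14517 and 15671 in wild type (-3.90, limma adjusted p = 0.0464), and the 4 seed markers summed to 27277 and 10491 in TEKi against 31320 and 36082 in wild type. Of these 4, 1 was called lower (CRA1), and OLEO1 and AT2S1 also had differences below 0. EM1 had a difference above 0 (1.38). All 4 markers had groups apart, 3 lower in TEKi and 1 higher. Their part in the receptor values was not tested.

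With the array-file labels, no member passed: 0 of 104, as for 0 of all 30352 genes (0.0%) in limma. An unadjusted p under 0.05 was reached by 6 members (5.77%), against 4.61% of all genes. Of these, 2 were higher in TEKi, against 2.37% of all genes, and 4 lower, against 2.24%. TEKi was higher with the groups apart in 10 members, against 15.3% of all genes, and lower in 16, against 14.7%. The log2 difference was above 0 in 43 members, against 50.8% of all genes, and below 0 in 61, with a median of -0.08 beside 0.0060 over all genes tested. AT1G63880, with 1 dim and 1 bright array in each group here, had a log2 difference of -0.02. RPP8, divided in the same way, had -0.15 (SE 2.64).

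AT5G36930, a receptor gene by its deposited function, had the smallest unadjusted p among members under the array-file labels. Its values were 48.6 and 43.0 in TEKi, against 145 and 144 in wild type (log2 difference -1.66, SE 0.175, unadjusted p = 0.0017, limma adjusted p = 1). All of these values are dim. AT4G14370 had 120 and 112 in TEKi against 284 and 221 in wild type (-1.11), AT5G41540 had 58.3 and 104 against 205 and 197 (-1.36), and AT3G44400 had 2233 and 2107 against 3725 and 3247 (-0.68). The 2 members higher at that level were AT1G72870, with 1329 and 1093 in TEKi against 747 and 667 in wild type (0.77), and AT1G27170, with 3797 and 3033 against 1984 and 2123 (0.73). Next in order came AT5G41750 (-1.13) and the pseudogene AT1G43180 (-0.89). All 8 had a limma adjusted p of 1. All 5 flower markers had differences below 0 under these labels, with groups apart in 3 of them, and none was called. They summed to 15846 and 26440 in TEKi against 53022 and 43807 in wild type, and SEP3 made up most of each sum. The part of these markers in the receptor values was not tested.

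Between the 2 arrays whose group both sources agree on, no test is possible, and the values describe those arrays only. TEKi 2 was at least 4-fold higher than wild type 1 in 8 members (7.69%), against 2.5% of all genes, and at least 4-fold lower in 9 (8.65%), against 4.92%. At 16-fold there were 3 higher members, against 0.237% of all genes, and 4 lower, against 1.76%. The median log2 difference over the members was 0.014, beside 0.07 over all genes. Thus AT5G40060 (18025 on TEKi 2, 415 on wild type 1), AT5G11250 (13737, 146) and RPM1 (2415, 39.2) were higher in TEKi 2. AT1G63880 (82.6, 31205), RPP8 (863, 26161), AT5G46510 (158, 9656) and AT5G46490 (166, 3137) were the 4 lower ones.

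**Figure D2:**
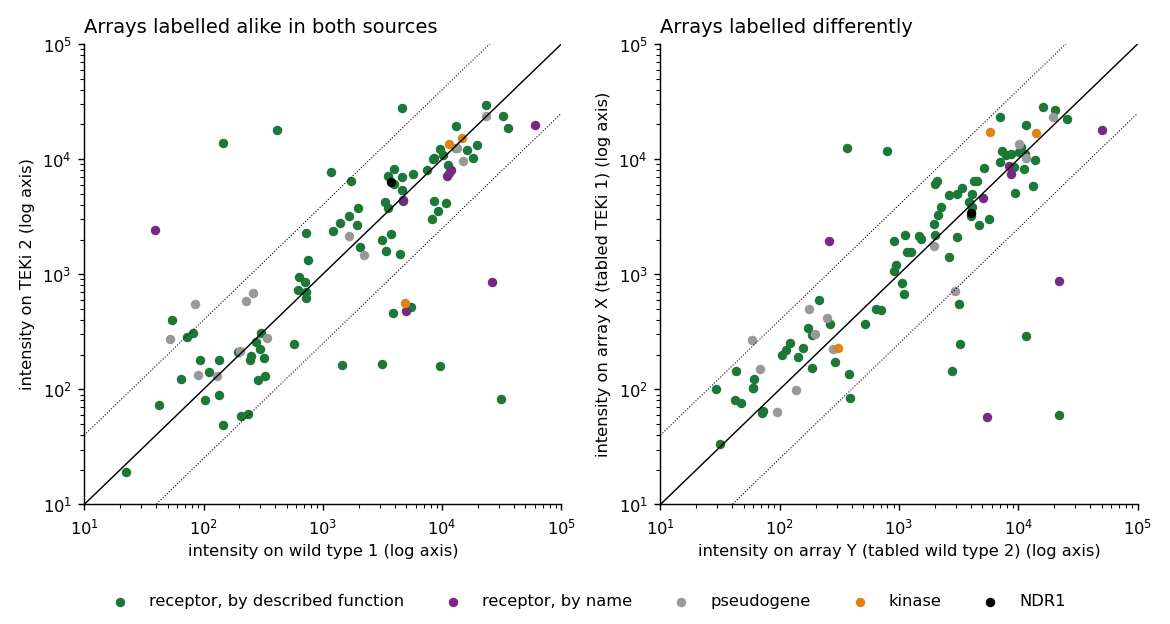
Deposited intensity of the 104 members on log axes, a point per member coloured by class, for TEKi 2 against wild type 1 (left) and array X against array Y (right); solid lines mark equal values and dotted lines 4-fold differences. At least 4-fold apart are 17 members on the left and 13 on the right.

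Wild type 1 also stood apart by itself. It was at least 2-fold above each of the other 3 arrays in 5 members (4.81%), against 1.64% of all genes. These were SERK5, a receptor-like kinase of the co-receptor family, with 4903 on wild type 1 and 227 to 560 elsewhere, AT5G46490 with 3137 and 166 to 289, AT1G66090 with 4456 and 1262 to 1556, AT1G72890 and AT5G45240. Of the 32 signalling partners, 3 were as high on the same array (9.38%): PR1, a pathogenesis marker, had 14350 on wild type 1 and 101 to 495 elsewhere, and CBP60G and SARD1, activators of salicylic acid synthesis, had 9032 and 3509, against at most 1631 and 1289. ICS1, EDS5 and NPR1, further salicylic acid genes, did not meet that rule: ICS1, the synthesis enzyme, had 21837 on array Y and 10902 on wild type 1, and EDS5 had 10826 and 12212. Whether they bear on the receptor values was not tested.

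Of the 104 members, 59 fell into 21 physical clusters, with at most 8 other array genes between neighbours. The members are spread as 32 on chromosome 1, 7 on chromosome 2, 11 on chromosome 3, 15 on chromosome 4 and 39 on chromosome 5. Clusters with 5 members numbered 4. In the RPP5 cluster on chromosome 4 (9512026 to 9551026), neighbours lay on opposite sides by the value table. RPP5 and AT4G16900 had differences below 0 and AT4G16920 above 0, as given above, while AT4G16940 had 131 and 84.1 in TEKi against 389 and 330 in wild type (log2 difference -1.77, limma adjusted p = 0.121). AT4G16960 had 226 and 1076 against 902 and 295, and its groups overlapped. No member of this cluster varied under 2-fold over the arrays, and none was called.

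The VICTR cluster on chromosome 5 (18852845 to 18889533) held the called AT5G46510 and AT5G46490, which was high on wild type 1 alone. Its other members varied under 2-fold. RPS6 (AT5G46470), a TIR receptor for a bacterial effector, had 29543 and 28383 in TEKi against 16096 and 23565 in wild type by the value table (0.57, limma adjusted p = 0.462), and AT5G46450 had 18491 and 22126 against 25543 and 35983 (-0.58, limma adjusted p = 0.456).

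In the RPS4 cluster on chromosome 5 (18301194 to 18343249), RPS4, a TIR receptor that works as a pair with RRS1, had the narrowest range of all members, 1.15-fold, with 4368 and 4618 in TEKi against 5029 and 4699 in wild type by the value table. AT5G45230 was dim, with 404 and 124 against 61.1 and 54.7 (1.95, limma adjusted p = 0.344). In the cluster AT1G72840 to AT1G72890 on chromosome 1 (27412963 to 27435378), 4 of 5 members varied under 2-fold, and the exception, AT1G72890, had 10696 on wild type 1 against 3227 to 4182 elsewhere.

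**Figure D3:**
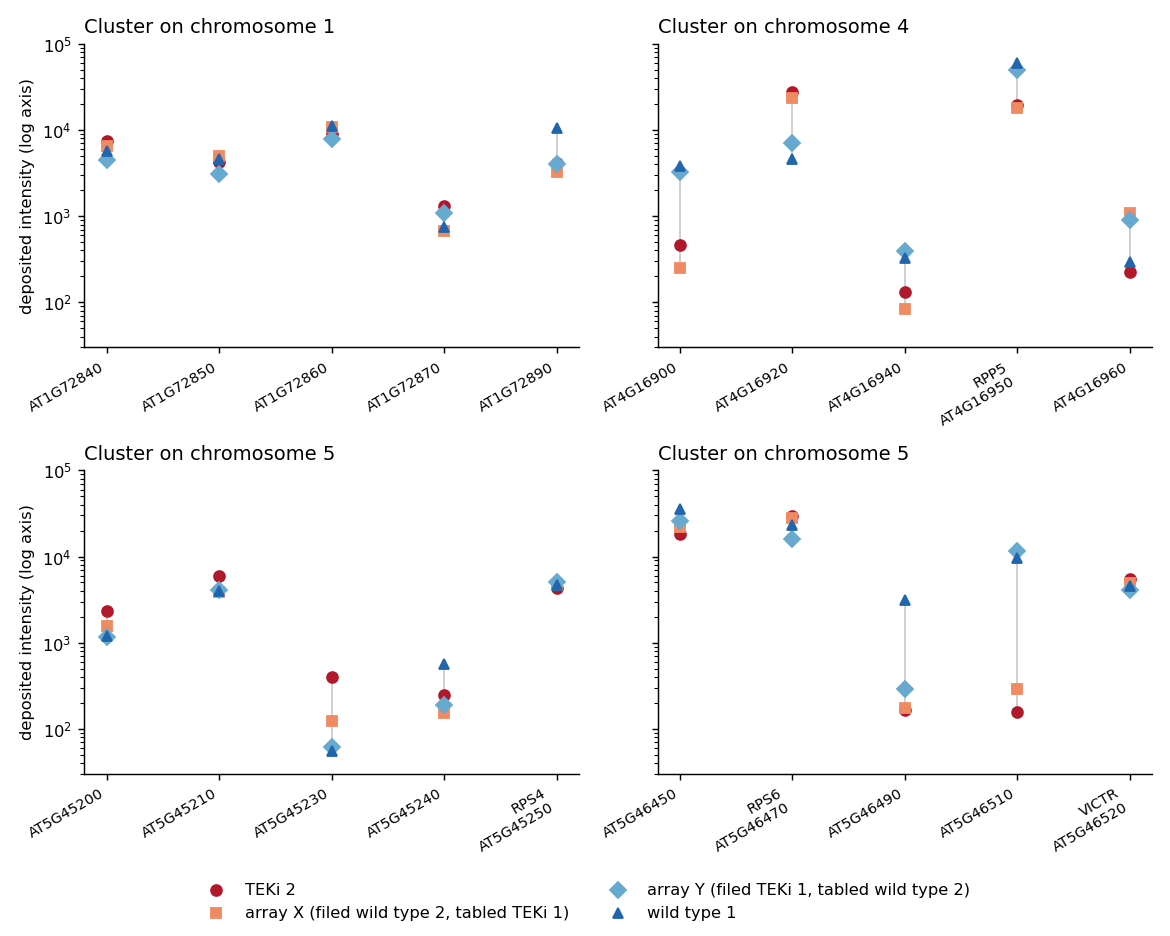
Deposited intensity (log axis) of the members of the 4 clusters with 5 members, in chromosome order and not to scale, a point per array. In the chromosome 4 panel TEKi 2 and array X lie below array Y and wild type 1 for AT4G16900, AT4G16940 and RPP5 and above them for AT4G16920; in the last panel they lie far below for AT5G46510, and wild type 1 alone is high for AT5G46490.

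Receptors with a known role made up 18 of the members, from a list of 38 such genes that were all on the array. Among the 18, 1 was called lower by the value table, RPP8, and none higher, beside 1.95% and 0.273% of all genes; 8 had an unadjusted p under 0.05, 4 in each direction, beside 14.4% of all genes. The median log2 difference of the 18 was 0.10. RPS2, the receptor that watches RIN4 together with RPM1, had 7987 and 7393 in TEKi against 8696 and 11780 in wild type (-0.40, limma adjusted p = 0.562). ADR1, a helper receptor, had 7078 and 8628 against 8276 and 10915 (-0.28, limma adjusted p = 0.707). Values of WRR4, for white rust resistance, were 3540 and 5803 in TEKi against 13400 and 9260 in wild type (-1.30, limma adjusted p = 0.278). TAO1 had 2762 and 2139 against 1468 and 1386 (0.77, limma adjusted p = 0.259), and AT4G12010 had 7770 and 6065 against 2014 and 1170 (2.16, limma adjusted p = 0.119). LAZ5, AT5G45060 and AT1G31540 varied under 2-fold, AT1G17600 varied 2.34-fold, and RLM1, a blackleg resistance gene, was dim at 42.7 to 73.0.

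The other 20 known receptors were on the array but were not picked by the rule. Among them AT1G61190 was called lower by the value table, with 1782 and 2077 in TEKi against 42648 and 46107 in wild type (log2 difference -4.53, SE 0.178, limma adjusted p = 0.0133). AT1G61180 next to it had 1090 and 2040 against 14732 and 15334 (-3.33, limma adjusted p = 0.0601). SNC1 and RPP4, relatives of RPP5 from the same region, had limma adjusted p of 0.0841 and 0.0581, with log2 differences of -2.81 and -1.88. RLM3 had 52256 and 52438 in TEKi against 23821 and 22379 in wild type (1.18, limma adjusted p = 0.0789). By contrast the helpers ADR1-L1 and ADR1-L2 and the resistosome receptor ZAR1 varied under 2-fold. With the array-file labels none of the 38 was called.

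**Figure D4:**
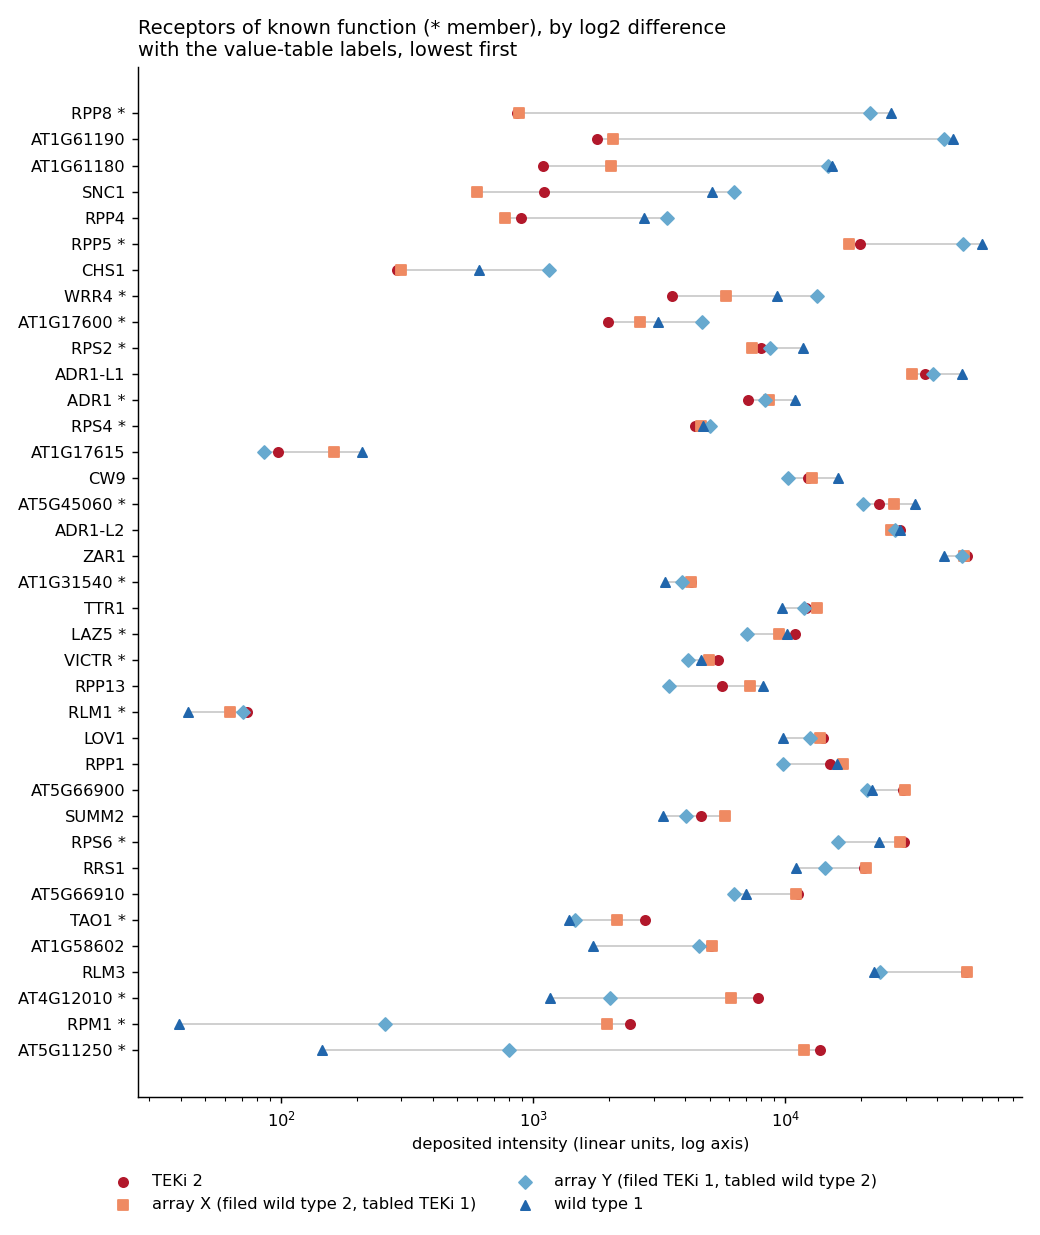
Deposited intensity (linear units on a log axis) of 37 known receptors on each array, a row per gene, ordered by log2 difference with the value-table labels from the lowest at the top; asterisks mark 17 members. TEKi 2 and array X lie below array Y and wild type 1 for RPP8, AT1G61190 and AT1G61180 and above them for AT4G12010, RPM1 and AT5G11250, while many rows between span under 2-fold.

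Pseudogenes, kinases and NDR1 gave no call under either set of labels, beside 2.22% of all genes by the value table and 0.0% by the array files. The 13 pseudogenes ranged from 1.23-fold to 6.4-fold over the arrays. With the value-table labels 2 of them (15.4%) had an unadjusted p under 0.05, near the 14.4% of all genes. Both were higher in TEKi, against 7.5% of all genes. These were AT3G44410, with 133 and 150 in TEKi against 68.7 and 89.1 in wild type (0.85, limma adjusted p = 0.238), and AT1G57840, with 684 and 416 against 251 and 262 (1.06, limma adjusted p = 0.29). EDR1, a kinase that restrains defence, varied 1.22-fold. NDR1 had 6318 and 3413 in TEKi against 4048 and 3743 in wild type by the value table (0.25, limma adjusted p = 0.837). By the array files its difference was 0.50, with groups apart. AT1G70250, described as a transmembrane receptor kinase, had 13413 and 17290 against 5787 and 11399 (0.91, limma adjusted p = 0.475).

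Members under 500 on every array numbered 25, between 19.1 and 494. None of the 25 was called by the value table, beside 2.22% of all genes. An unadjusted p under 0.05 was reached by 4 of them, beside 14.4% of all genes, and 10 had groups apart, beside 27.7% of all genes apart with TEKi higher and 17.1% with TEKi lower. Their median range of 2.82-fold exceeded the 2.32-fold of all members. Whether such values stood above background is unknown, because no detection flags were used.

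Signalling partners of the receptors had a median range of 1.56-fold over the arrays, beside 2.32-fold for the members and 1.71-fold over all genes tested. Of 32 such genes, chosen from general knowledge and including NDR1, none was called under either set of labels, beside 2.22% of all genes by the value table and 0.0% by the array files. A range under 2-fold was found for 25, beside 59.9% of all genes. With the value-table labels 3 had an unadjusted p under 0.05, 1 higher and 2 lower, beside 14.4% of all genes, and with the array-file labels 2 did, both lower, beside 4.61%. The median log2 difference was -0.01 by the value table and -0.09 by the array files. EDS1, the hub of TIR receptor signalling, had 14225 and 12521 in TEKi against 19567 and 13086 in wild type by the value table, PAD4 had 6640 and 6065 against 4588 and 7477, and SAG101 varied 1.19-fold. EDM2 and IBM2, which promote full-length transcripts of certain receptor genes, varied 1.13-fold and 1.04-fold.

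The HSP90, SGT1 and RAR1 genes on the list encode a chaperone complex that keeps the receptors competent, and none was called. HSP90.2 had 56138 and 56853 in TEKi against 34690 and 32834 in wild type by the value table (0.74, SE 0.155, limma adjusted p = 0.174). HSP90.1 had 30329 and 28225 in TEKi against 49875 and 55456 in wild type by the array files (-0.85, unadjusted p = 0.014, limma adjusted p = 1), and SGT1A had 29056 and 22279 against 46615 and 44805 (-0.84, unadjusted p = 0.0267). HSP90.3 had 40107 and 34102 in TEKi against 52419 and 52996 in wild type by the value table (-0.51, limma adjusted p = 0.349), opposite in sign to HSP90.2. HSP90.4, SGT1B, RAR1, HSP90.1 (-0.02) and SGT1A (0.22) had overlapping groups there. By the array files HSP90.2 (0.03), HSP90.3 (0.11) and HSP90.4 (0.20) had overlapping groups. With those labels SGT1B (0.30) was higher in TEKi with groups apart, and RAR1 (-0.21) was lower with groups apart. FMO1, a gene of systemic resistance, had 936 and 1129 in TEKi against 88.8 and 434 in wild type by the value table (2.39, limma adjusted p = 0.379).

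**Figure D5:**
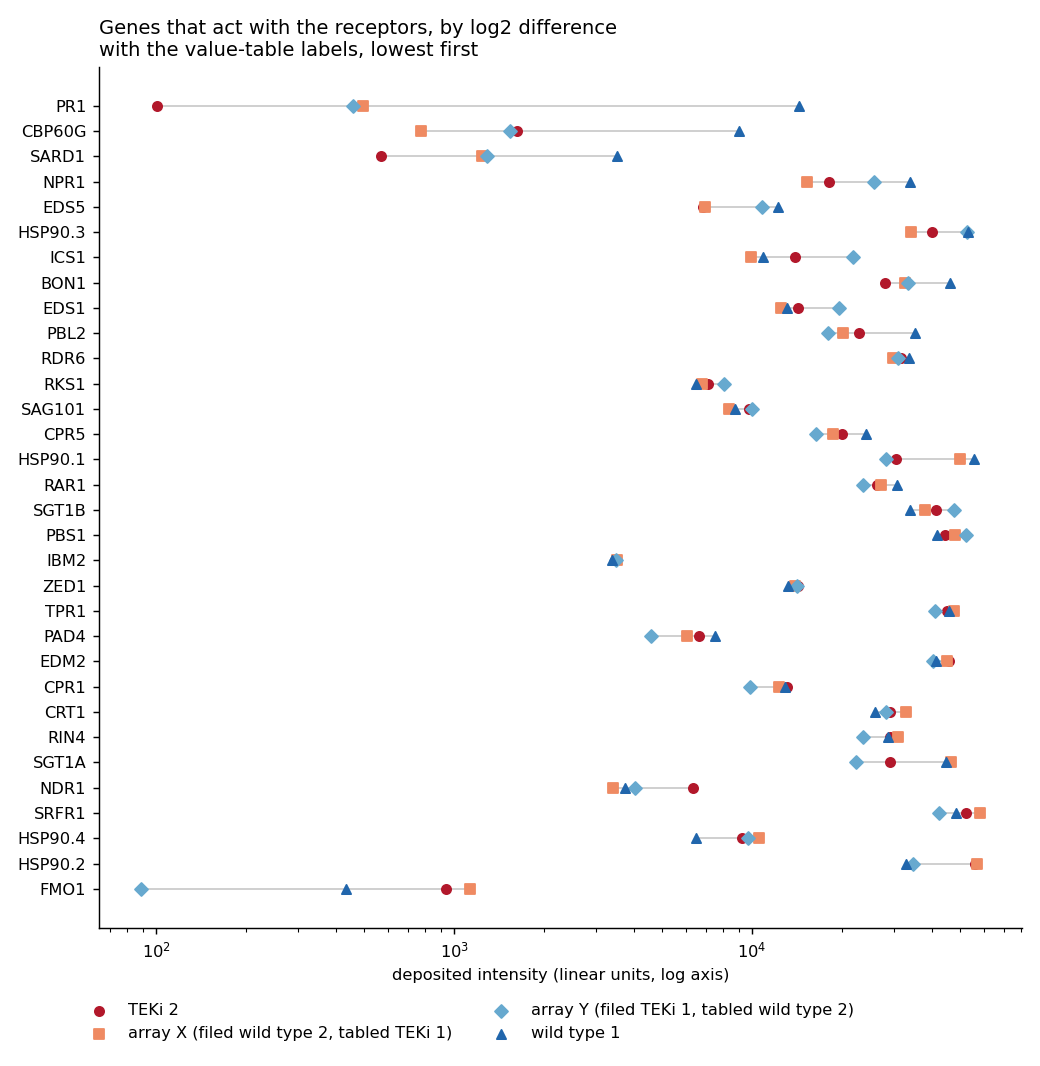
Deposited intensity (linear units on a log axis) of the 32 signalling partners on each array, a row per gene, ordered by log2 difference with the value-table labels from the lowest at the top. Of the rows, 25 span under 2-fold, and wild type 1 alone is high for PR1, CBP60G and SARD1.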

How the data were processed

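Gene expression was measured on 4 NimbleGen arrays, 2 labelled TEKi and 2 labelled wild type. The authors deposited 1 linear intensity per gene and array, made by RMA per the submitters' processing notes, which name no version. RMA corrects background and normalizes arrays to each other. Each member rests on 2 or 3 probe pairs, with coordinates of annotation release 6, per the file headers. Symbols came from the RefSeq table of TAIR10.1 (names only), in which all 104 members matched.

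Each value-table column was identical to 1 array on all 30361 genes. After 9 genes with an exact 0 were left out, log2 intensity of 30352 genes was fitted with limma 3.58.1 (lmFit, eBayes, 2-sided) in R 4.3.3, without a filter, p-values adjusted by Benjamini-Hochberg across those genes and an adjusted p of 0.05 as the threshold. SE is the moderated standard error. The number of arrays limits the precision. Image identifiers gave no batch to fit.

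The members and gene lists were chosen with earlier results of these data known. The genes named by rule were TEK, called members or otherwise the 8 with the smallest p, known receptors among members, partners that passed, clusters of 5, and the 8 widest ranges. Other genes were chosen after their values were seen. The alternatives were quantile normalization, median centring, dim-gene filters, a pseudocount of 50, leaving out genes at the highest value, a replicate block, other variance models, narrower descriptions, and leaving out each array. Using only the arrays labelled alike was added after seeing the data. In a simulation of the value-table comparison (30352 genes, 200 changed), 0.0% of the 4-fold and 21% of the 16-fold changes were called. With 1500 changed, 53.6% and 77.7% were, with 48 false calls. Noise was drawn from each gene's spread as estimated on these arrays, and all changes were of those sizes. The rates therefore describe those settings and do not give the power of the real comparison. Results for 1 member are not reported here, though it stays in the counts. No sequences were used.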

Additional observations from a re-analysis of the deposited data

How the results depend on the processing

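With the array-file labels, the count of called members and of called signalling partners stayed at 0 under every alternative run. With the value-table labels, 4 members were called. That count was 8 of 71 without the lowest quartile of genes, 7 with a pseudocount of 50 and 7 without genes at the highest value. It was 10 with a mean-variance trend, 6 with median centring and 3 of 82 with narrower descriptions. It was 1 of 27 (RPP5) without genes below the median, which removes the other called members, and 0 with plain variance, where the cause was not tested. Calls over all genes moved too, from 83 higher and 591 lower. They were 186 and 720 of 22764 genes without the lowest quartile, and 34 and 157 of 15176 without genes below the median. The pseudocount gave 129 and 733, the trend 224 and 926, median centring 101 and 683, and leaving out the highest value 101 and 669. Leaving out each array gave 0 in all 4 cases, as for all genes, so those fits say nothing about the stability of a member. With the replicate block the count was also 0, at a lowest limma adjusted p over all genes of 0.0753. Deviations from the group means correlated between arrays of the same number at 0.650 (array files) and 0.112 (value table). With 2 arrays per group both replicate numbers must give the same correlation, so it cannot decide whether the numbers pair the samples. No pairing was fitted in the main comparison. Signalling partners had 1 call, HSP90.2, with the trend. The members' median log2 difference, -0.08 with the array-file labels, was -0.16 without genes below the median, -0.19 to -0.078 when 1 array was left out, and 0.014 with only the arrays labelled alike. By the value table this median was 0.18, against 0.12 without the lowest quartile, 0.069 without genes below the median, 0.12 to 0.27 when 1 array was left out, and again 0.014 with only the arrays labelled alike. TEK, at -0.24 with the array-file labels, lay between -0.48 and 0.0014 when 1 array was left out, and at 0.28 by the value table, between 0.057 and 0.50. Over all genes, the 674 calls of the value table were 0 without any 1 array, with the block or with plain variance. Dim members limit the precision, since no measure of signal over background was used.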
